A study of Mus musculus with 16 samples.

Results

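LIM homeobox genes encode transcription factors that join a DNA-binding homeodomain to a pair of zinc-binding LIM domains. Measured here were 10 of them, out of 22180 genes tested: Lhx1, Lhx2, Lhx3, Lhx4, Lhx5, Lhx9, Isl1, Isl2, Lmx1a and Lmx1b. They were chosen by family and name, each from the array entry that carries its symbol alone. The entries are 17267039 (Lhx1), 17370439 (Lhx2), 17382851 (Lhx3), 17228398 (Lhx4), 17441652 (Lhx5), 17227589 (Lhx9), 17296427 (Isl1), 17517532 (Isl2), 17219127 (Lmx1a) and 17384190 (Lmx1b).

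RNA of mouse cells was hybridised to 16 Affymetrix Mouse Gene 2.1 ST arrays. All groups came from the single reporter line iGPA-Myo7a:mVenus, embryonic stem cells grown as floating embryoid bodies (EBs). In it doxycycline (Dox) turns on transgenes for the hair cell factors Gfi1, Pou4f3 and Atoh1, and the Myo7a promoter, active in hair cells, controls the reporter mVenus. The hair cell-like cells so induced (iHCs) were isolated by sorting on mVenus. The 4 iHC groups were Dox with retinoic acid (RA) at culture day 12, Dox with RA at day 8, Dox alone at day 12 and Dox alone at day 8, with 3 biological replicates each. Treatment began on day 4 and so lasted 8 days at day 12 and 4 days at day 8. Control EBs of day 12 and of day 8, 2 replicates each, received neither Dox nor RA and were not sorted, so treatment and sort cannot be told apart in any difference from them. The RNA is bulk RNA, in which fewer cells of a type and less RNA per cell cannot be told apart.

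Hair cell markers were high in the sorted cells at the RNA level, in part by design. The mean log2 value of 10 hair cell markers lay between 8.93 and 9.79 on the iHC arrays and between 5.31 and 5.66 on the EB arrays. All 10 of these markers were called higher in every iHC group, where 15.7% to 22.4% of all genes were called higher. Dox drives Gfi1, Pou4f3 and Atoh1, and the sort selected for activity of the Myo7a promoter. The rise of these markers, which also enter the mean, was thus set by the design. Among the others, Cdh23 differed from EBs by 3.98 to 5.08 and Espn by 1.02 to 1.88. For the induced factors, and for Myo7a, signal from the transgenes may add to that of the native genes. Mean values of 8 neuron markers were also above those of EBs, at 6.06 to 7.19 on iHC arrays against 4.46 to 4.97 on EB arrays. Mean values of 7 mesenchyme markers were 4.45 to 5.15 on iHC arrays against 8.99 to 9.96 on EB arrays. Replicate arrays of a group correlated at 0.982 to 0.995 over the genes tested, and iHC with EB arrays at 0.870 to 0.935.

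LIM homeodomain proteins act in combinations. Ldb1 bridges them into larger complexes, LIM-only proteins compete for the same bridge, and the set of members a cell expresses is often called a LIM code for neuron type. In the mouse spinal cord Lhx3 with Isl1 specifies motor neurons and Lhx3 without Isl1 specifies V2 interneurons, while Lhx2 and Lhx9 mark the dI1 neurons that descend from Atoh1 progenitors. In the mouse inner ear Lhx3 is expressed in hair cells, Isl1 marks prosensory cells and neuroblasts, and Lmx1a is needed for the patterning of the otocyst.

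Of the family, 4 genes rose in every iHC group relative to EBs of the same day: Lhx1, Lhx3, Lhx4 and Lmx1b. Across all genes tested, 11.3% were called higher in all 4 groups and 14.5% lower in all 4, and 0 LIM homeobox genes were lower in all 4. Lhx1 and Lhx3 differed most, by 4.08 to 5.39 on the log2 scale, Lhx4 by 2.22 to 3.14 and Lmx1b by 0.68 to 1.0. Isl1 was higher than in EBs in both iHC groups of day 8 and lower in Dox+RA iHCs of day 12. Lhx2 and Isl2 fell by smaller amounts in some groups, and Lhx5, Lhx9 and Lmx1a were called in none of the 12 comparisons.

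A gene counts as called when its p from limma, adjusted by Benjamini-Hochberg across the 22180 genes, is under 0.05. After a log2 difference, ± gives the standard error from limma, and after a level it gives the SD. Comparisons share arrays (the EBs of a day, or an iHC group), so they are not independent of each other. In Dox+RA iHCs of day 12, 4 of the 10 were higher and 2 lower than in EBs, where 44.8% of all genes were called (22.4% higher, 22.4% lower). In Dox+RA iHCs of day 8, 5 were higher and 1 lower, against 41.6% of all genes called (19.6% higher, 22.0% lower). Dox iHCs of day 12 had 4 higher and 2 lower, with 40.8% of all genes called (19.2% higher, 21.7% lower). Dox iHCs of day 8 had 5 higher and 1 lower, with 34.6% of all genes called (15.7% higher, 18.9% lower). A count of 6 of 10 is thus above these shares by few genes, and the description rests on the sizes of the differences. Arrays of iHCs and EBs did not overlap, on the higher and lower side, for 36.1% and 28.5% of all genes in Dox+RA at day 12, 33.0% and 28.1% in Dox+RA at day 8, 29.6% and 28.7% in Dox at day 12, and 28.2% and 27.2% in Dox at day 8. The median difference of the 10 genes was 0.16, 0.31, 0.19 and 0.41 in these 4 comparisons in that order, and that of all genes 0.07, 0.05, 0.02 and 0.02.

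**Figure D1:**
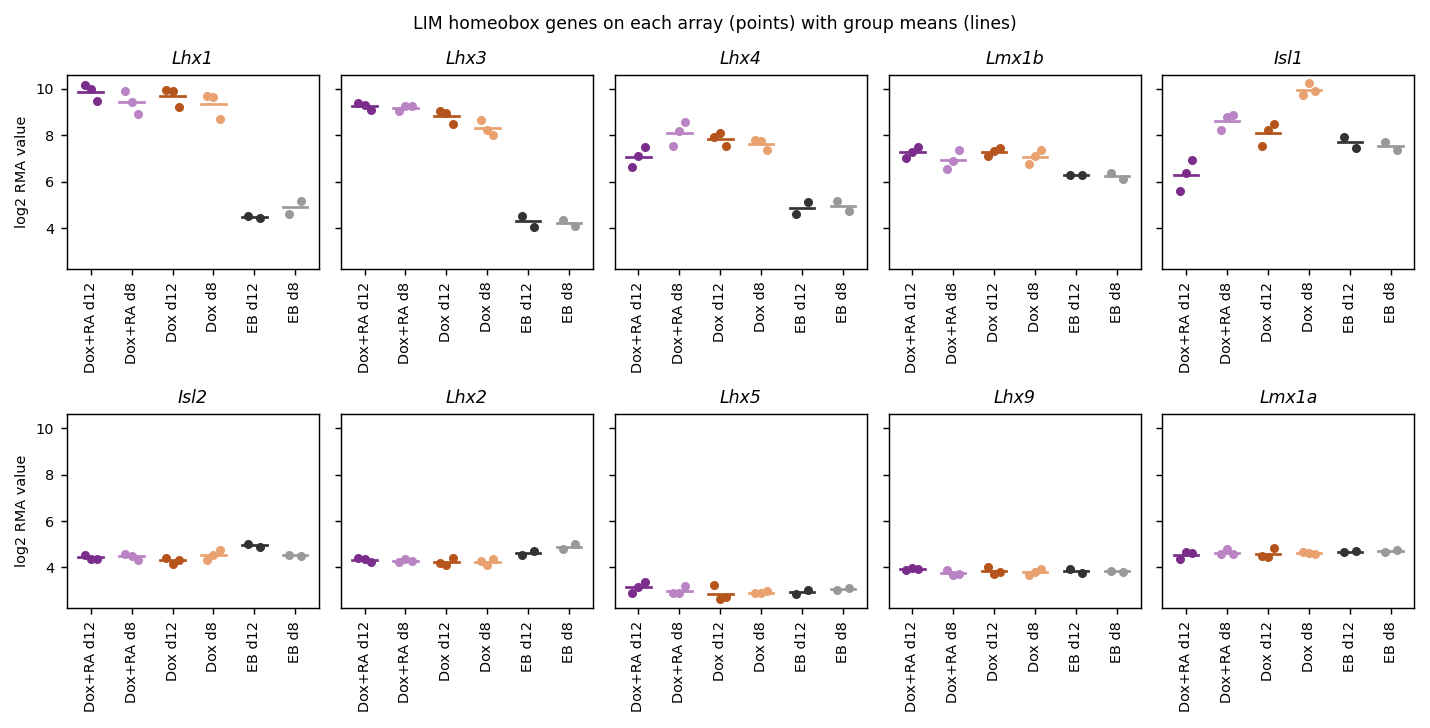
Log2 value (RMA, vertical axis) of the 10 LIM homeobox genes on each of the 16 arrays (points), with group means (lines), for Dox+RA iHCs, Dox iHCs and control EBs at day 12 and day 8. Lhx1 and Lhx3 lie between 8.01 and 10.15 on iHC arrays and between 4.06 and 5.18 on EB arrays, while Isl1 lies on either side of its EB values.

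The promoter windows below belong to Lhx1, Lhx3 and Lhx4, the genes with the largest differences from EBs, and to Isl1, the one that moved most with RA and time. Each runs from 250 bases before a RefSeq transcript start to 50 after it (GRCm38.p6), 5′ to 3′ on the gene's strand. Capitals mark the E-boxes CAGCTG and CAGATG, sequences of a kind bound by basic helix-loop-helix factors such as Atoh1, read on both strands, so that CATCTG is CAGATG on the other strand.

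Lhx1 (chr11:84525485-84525784, minus strand): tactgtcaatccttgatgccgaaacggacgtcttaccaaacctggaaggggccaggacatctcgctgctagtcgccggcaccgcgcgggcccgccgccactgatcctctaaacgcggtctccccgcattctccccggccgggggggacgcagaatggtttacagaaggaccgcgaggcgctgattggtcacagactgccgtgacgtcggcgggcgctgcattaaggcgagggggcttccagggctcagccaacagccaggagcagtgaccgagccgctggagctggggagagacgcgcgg

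Lhx3 (chr2:26206526-26206825, minus strand): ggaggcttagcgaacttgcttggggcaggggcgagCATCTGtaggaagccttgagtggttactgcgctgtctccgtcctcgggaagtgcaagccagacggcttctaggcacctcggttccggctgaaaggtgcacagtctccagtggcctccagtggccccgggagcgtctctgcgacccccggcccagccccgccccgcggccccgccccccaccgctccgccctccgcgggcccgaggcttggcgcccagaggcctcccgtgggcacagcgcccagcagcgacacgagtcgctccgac

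Lhx4 (chr1:155741978-155742277, minus strand): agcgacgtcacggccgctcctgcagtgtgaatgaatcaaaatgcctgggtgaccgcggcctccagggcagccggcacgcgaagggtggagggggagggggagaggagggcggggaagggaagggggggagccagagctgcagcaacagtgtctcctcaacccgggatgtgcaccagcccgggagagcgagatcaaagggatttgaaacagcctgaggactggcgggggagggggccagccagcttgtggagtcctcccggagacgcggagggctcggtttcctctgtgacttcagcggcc

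Isl1 (chr13:116309639-116309938, minus strand): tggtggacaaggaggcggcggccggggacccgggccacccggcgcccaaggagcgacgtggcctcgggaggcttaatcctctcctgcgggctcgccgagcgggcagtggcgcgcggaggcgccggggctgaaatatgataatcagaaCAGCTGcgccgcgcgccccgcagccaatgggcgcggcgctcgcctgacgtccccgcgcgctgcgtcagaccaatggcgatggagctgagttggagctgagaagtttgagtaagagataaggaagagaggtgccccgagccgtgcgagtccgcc

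Windows matched for 9 of the 10 genes, 11 windows in all, and each motif was also counted in all 32851 windows. CAGCTG was in 1 of the 11 windows, that of Isl1, beginning at position -103 from the start, and in 16.3% of all windows. CAGATG was in 2, one Lhx3 window at position -215 and one Lhx2 window at position 26, and in 17.2% of all windows. The homeodomain core TAATTA was in 0 of the 11, against 5.29% of all windows. The windows of Lhx1 and Lhx4, and the second window of Lhx3, held none of the 3 motifs. No motif overlapped another, and a match is a description of the letters, not a binding site.

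Lhx1, which acts in the head organizer, the kidney and Purkinje cells, reached the largest difference from EBs in the family, in Dox+RA iHCs of day 12. At day 12 its log2 values were 10.15, 10.00 and 9.46 in Dox+RA iHCs, 9.94, 9.89 and 9.24 in Dox iHCs, and 4.51 and 4.45 in EBs. At day 8 they were 9.92, 9.44 and 8.91 in Dox+RA iHCs, 9.71, 9.64 and 8.72 in Dox iHCs, and 4.63 and 5.18 in EBs. Every iHC array lay far above every EB array, and the 4 iHC groups overlapped one another. The differences were 5.39 ± 0.33 in Dox+RA iHCs of day 12 (41.9-fold, adjusted p = 5.9e-09) and 4.52 ± 0.33 in those of day 8 (22.9-fold, adjusted p = 4.6e-08). Dox iHCs differed by 5.21 ± 0.33 at day 12 (37.0-fold, adjusted p = 1.0e-08) and 4.45 ± 0.33 at day 8 (21.9-fold, adjusted p = 8.6e-08). Lhx5, the close relative of Lhx1 in the same interneuron classes, read 2.63 to 3.37 on iHC arrays and 2.84 to 3.12 on EB arrays.

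Lhx3, a factor of motor neurons, V2 interneurons, the pituitary and hair cells, separated iHCs from EBs without overlap of their arrays. At day 12 it read 9.38, 9.30 and 9.10 in Dox+RA iHCs, 9.07, 8.97 and 8.48 in Dox iHCs, and 4.53 and 4.06 in EBs. At day 8 it read 9.07, 9.25 and 9.26 in Dox+RA iHCs, 8.65, 8.25 and 8.01 in Dox iHCs, and 4.34 and 4.10 in EBs. Dox+RA groups stood highest, and the lowest group mean of the iHCs was that of Dox at day 8, 8.31 ± 0.32 (SD, n = 3). Against EBs the difference was 4.97 ± 0.20 in Dox+RA iHCs at either day (31.3-fold, adjusted p = 9.1e-11 at day 12 and adjusted p = 1.1e-10 at day 8). In Dox iHCs it was 4.54 ± 0.20 at day 12 (23.3-fold, adjusted p = 2.5e-10) and 4.08 ± 0.20 at day 8 (17.0-fold, adjusted p = 1.1e-09).

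Lhx4, the paralogue that works beside Lhx3 in the pituitary and in motor neurons, rose less and changed its order across groups. At day 12 its values were 6.64, 7.09 and 7.51 in Dox+RA iHCs, 7.95, 8.09 and 7.52 in Dox iHCs, and 4.60 and 5.13 in EBs. At day 8 they were 7.53, 8.18 and 8.56 in Dox+RA iHCs, 7.80, 7.75 and 7.35 in Dox iHCs, and 5.18 and 4.72 in EBs. No iHC array reached down to the EBs, and Dox+RA iHCs of day 12 were the lowest of the iHC groups. Relative to EBs, Lhx4 was 4.66-fold higher in Dox+RA iHCs at day 12 (2.22 ± 0.30, adjusted p = 1.8e-05) and 8.80-fold higher at day 8 (3.14 ± 0.30, adjusted p = 6.2e-07). In Dox iHCs it was 7.95-fold higher at day 12 (2.99 ± 0.30, adjusted p = 1.0e-06) and 6.41-fold higher at day 8 (2.68 ± 0.30, adjusted p = 4.8e-06).

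Lmx1b, needed for serotonergic and dorsal horn neurons and for the dorsal limb, was the fourth gene higher in all iHC groups, by far less. Its values at day 12 were 7.02, 7.30 and 7.50 in Dox+RA iHCs, 7.12, 7.31 and 7.45 in Dox iHCs, and 6.31 and 6.28 in EBs. At day 8 they were 6.57, 6.91 and 7.36 in Dox+RA iHCs, 6.75, 7.09 and 7.39 in Dox iHCs, and 6.39 and 6.14 in EBs. The groups did not overlap, but the lowest iHC array was close to the highest EB array. The differences were 0.98 ± 0.22 (adjusted p = 0.0016) and 0.68 ± 0.22 (adjusted p = 0.020) in Dox+RA iHCs of day 12 and day 8. In Dox iHCs they were 1.0 ± 0.22 (adjusted p = 0.0014) and 0.81 ± 0.22 (adjusted p = 0.0085) at day 12 and day 8. At day 8 the call rested on single arrays. Without EB replicate 2 the adjusted p was 0.16 for Dox+RA and 0.0962 for Dox, and without Dox+RA replicate 3 it was 0.0837 for Dox+RA. Lmx1a, the paralogue, read 4.38 to 4.85 on iHC arrays and 4.65 to 4.74 on EB arrays.

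**Figure D2:**
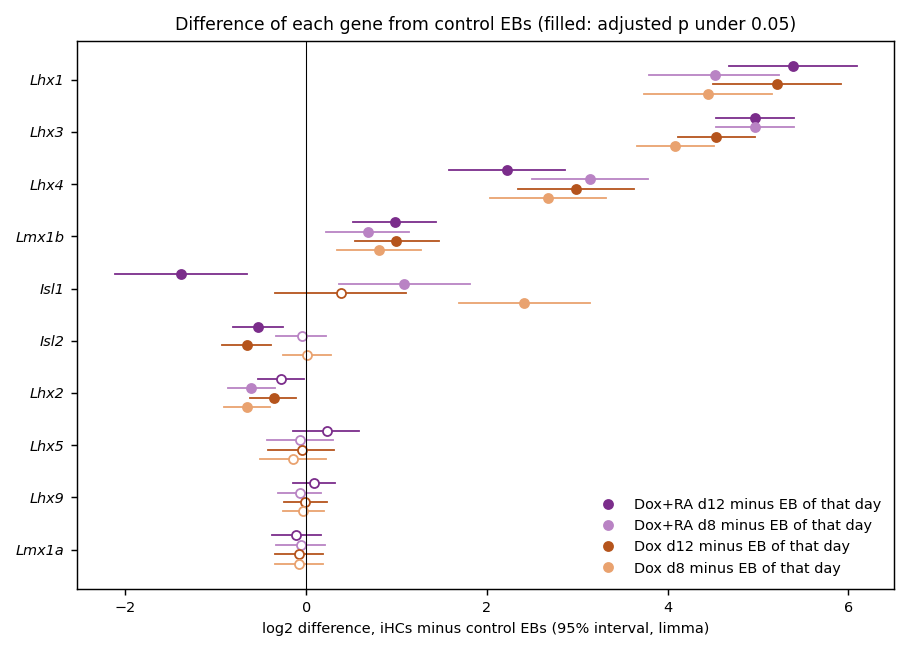
Log2 difference of each LIM homeobox gene between iHCs and control EBs of the same day (points) with its 95% interval from limma (lines), for the 4 iHC groups; filled points had an adjusted p under 0.05. Lhx1, Lhx3, Lhx4 and Lmx1b lie to the right of 0 in all 4 groups, and Isl1 spans from -1.39 in Dox+RA iHCs of day 12 to 2.41 in Dox iHCs of day 8.

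Isl1, a factor of motor and sensory neurons, cardiac progenitors and the otic prosensory region, was the one LIM homeobox gene called higher than in EBs in some iHC groups and lower in another. At day 8 its values were 8.21, 8.80 and 8.88 in Dox+RA iHCs, 9.72, 10.24 and 9.93 in Dox iHCs, and 7.72 and 7.37 in EBs. At day 12 they were 5.61, 6.37 and 6.95 in Dox+RA iHCs, 7.55, 8.24 and 8.47 in Dox iHCs, and 7.93 and 7.47 in EBs. Both iHC groups of day 8 lay above their EBs, Dox iHCs of day 12 overlapped theirs, and Dox+RA iHCs of day 12 lay below. By group mean, Dox at day 8 came first (9.96 ± 0.26), then Dox+RA at day 8 (8.63 ± 0.37), Dox at day 12 (8.09 ± 0.48), EBs at day 12 (7.70 ± 0.33), EBs at day 8 (7.55 ± 0.25) and Dox+RA at day 12 (6.31 ± 0.67). Only the first and the last stood clear of their neighbour in that order.

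Against EBs, Isl1 rose 5.33-fold in Dox iHCs of day 8 (2.41 ± 0.34, adjusted p = 4.8e-05) and 2.12-fold in Dox+RA iHCs of day 8 (1.08 ± 0.34, adjusted p = 0.018). It fell 2.62-fold in Dox+RA iHCs of day 12 (-1.39 ± 0.34, adjusted p = 0.0036). In Dox iHCs of day 12 the difference was 0.39 ± 0.34 (95% interval -0.34 to 1.11, adjusted p = 0.42). The Dox+RA call at day 8 was lost without EB replicate 2 (adjusted p = 0.144), Dox+RA replicate 2 (adjusted p = 0.0556) or Dox+RA replicate 3 (adjusted p = 0.0596). The Dox+RA call at day 12 was lost without EB replicate 1 (adjusted p = 0.0521).

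Isl1 fell with time in the iHCs and not by any called amount in EBs. Day 12 minus day 8 was -2.32 ± 0.30 in Dox+RA iHCs (4.99-fold lower, adjusted p = 0.001) and -1.87 ± 0.30 in Dox iHCs (3.67-fold lower, adjusted p = 0.0032), without overlap of the arrays. In EBs it was 0.15 ± 0.37 (adjusted p = 0.92). The difference between these changes was itself tested: it was -2.47 ± 0.48 for Dox+RA iHCs minus EBs (adjusted p = 0.012) and -2.03 ± 0.48 for Dox iHCs minus EBs (adjusted p = 0.036). Leaving out EB replicate 1 of day 12 or EB replicate 2 of day 8 took the Dox+RA value to adjusted p = 0.0781 and adjusted p = 0.0739. The Dox value lost its call without any 1 of 9 of the 16 arrays: any EB array, Dox replicates 1 or 2 of day 12, Dox replicates 2 or 3 of day 8, or Dox+RA replicate 2 of day 12 (adjusted p up to 0.17).

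In these same comparisons Lhx4 was called with time in Dox+RA iHCs alone, at -1.01 ± 0.27 (2.01-fold lower, adjusted p = 0.047). That call was lost without any 1 of 12 arrays (adjusted p up to 0.192), and kept without Dox+RA replicate 3 of day 12, Dox replicate 3 of either day, or Dox+RA replicate 1 of day 8. It was also lost in a fit of these arrays alone (adjusted p = 0.0921), and the same change minus that of EBs was -0.92 ± 0.42 (adjusted p = 0.36). Lhx3 in Dox iHCs differed over time by 0.53 ± 0.18 (adjusted p = 0.086), and with the replicate number as a block this passed the threshold (adjusted p = 0.0206). It also passed without Dox replicate 1 of day 8 (adjusted p = 0.0251) or Dox replicate 3 of day 12 (adjusted p = 0.0164).

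In all, 2 of the 10 genes were called lower over time in Dox+RA iHCs and 0 higher, where 4.38% of all genes were called (1.78% higher, 2.61% lower). In Dox iHCs 1 was lower and 0 higher, with 8.05% of all genes called (3.39% higher, 4.66% lower). In EBs limma called 0 of the 10, against 3.75% of all genes (2.33% higher, 1.42% lower), and 2 (Lhx2 and Isl2) had an unadjusted p under 0.05. Arrays of day 12 and day 8 did not overlap, on the higher and lower side, for 12.8% and 9.96% of all genes in Dox+RA iHCs, 11% and 12.2% in Dox iHCs, and 23.4% and 22.1% in EBs. For the changes over time minus those of EBs, Isl1 was the 1 of the 10 called, lower, in either iHC treatment. Of all genes 2.62% were called there for Dox+RA (0.956% higher, 1.67% lower) and 2.84% for Dox (1.03% higher, 1.81% lower). With the block Lhx1 was called there too for Dox+RA (0.87, adjusted p = 0.0415 with the block and adjusted p = 0.46 without it).

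Isl1 and Lhx3 differed with RA in opposite directions. Dox+RA iHCs had less Isl1 than Dox iHCs, by 3.42-fold at day 12 (-1.77 ± 0.30, adjusted p = 0.012) and by 2.51-fold at day 8 (-1.33 ± 0.30, adjusted p = 0.021), and the arrays of the groups did not overlap at either day. The day 12 call was lost without Dox+RA replicate 1 (adjusted p = 0.0501), Dox+RA replicate 2 (adjusted p = 0.056) or Dox replicate 2 (adjusted p = 0.0728), and in a fit of these arrays alone (adjusted p = 0.139). The day 8 call was lost without Dox+RA replicate 1 (adjusted p = 0.0924), Dox+RA replicate 2 (adjusted p = 0.0514), Dox replicate 2 (adjusted p = 0.108) or Dox replicate 3 (adjusted p = 0.07). The direction was the same in each of these fits.

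Lhx3 was 1.85-fold higher in Dox+RA than in Dox iHCs at day 8 (0.89 ± 0.18, adjusted p = 0.011), also without overlap, and differed by 0.42 ± 0.18 at day 12 (adjusted p = 0.35). The day 8 call was lost without Dox replicate 2 (adjusted p = 0.0588) or Dox replicate 3 (adjusted p = 0.0624). Of the 10 genes, 1 was called lower and 0 higher with RA at day 12, where 0.924% of all genes were called (0.383% higher, 0.541% lower). At day 8, 1 was higher and 1 lower, with 4.93% of all genes called (2.05% higher, 2.89% lower). Arrays did not overlap, on the higher and lower side, for 9.78% and 6.07% of all genes at day 12 and 11.9% and 12.0% at day 8. Lhx4 differed by -0.77 ± 0.27 at day 12 (adjusted p = 0.23) and 0.46 ± 0.27 at day 8 (adjusted p = 0.40). Lhx1 differed by 0.18 at day 12 (95% interval -0.46 to 0.82) and 0.06 at day 8 (-0.57 to 0.70), and Lmx1b by -0.02 (-0.44 to 0.39) and -0.13 (-0.54 to 0.29). The change of the RA difference between the days was called for 0 of the 10 genes, against 0.00902% of all genes (0.00% higher, 0.00902% lower). Only Lhx4 had an unadjusted p under 0.05 there (-1.23 ± 0.38, adjusted p = 0.65).

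**Figure D3:**
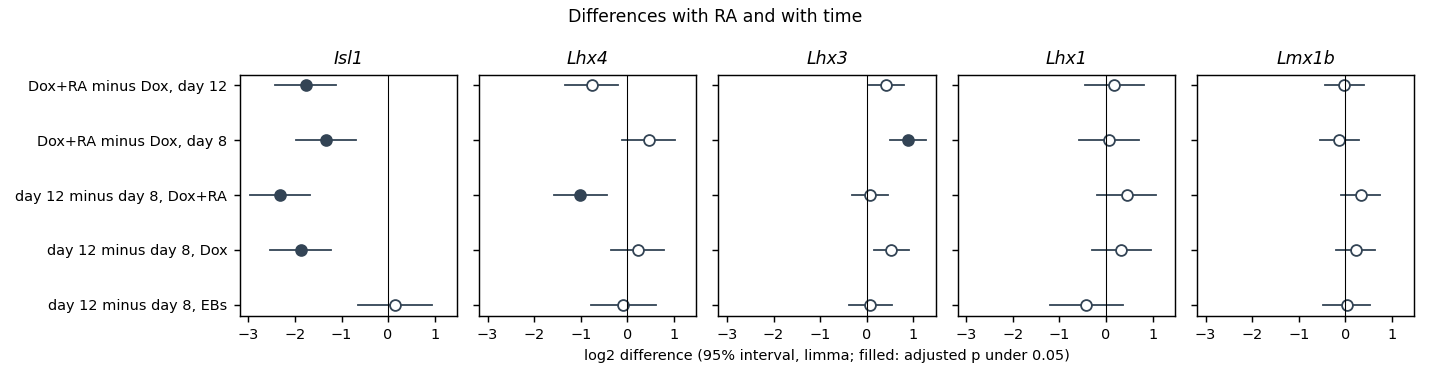
Log2 differences (horizontal axes, with 95% intervals from limma) of Isl1, Lhx4, Lhx3, Lhx1 and Lmx1b for Dox+RA minus Dox iHCs at each day and for day 12 minus day 8 in each treatment; filled points had an adjusted p under 0.05. Isl1 lies left of 0 in the 4 iHC comparisons and at 0.15 in EBs, and Lhx3 is called with RA at day 8.

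Markers of hair cells and neurons, and a cardiac gene, moved in part with these comparisons, and their part in the results was not tested. With RA at day 8, 4 of the 10 hair cell markers were called higher and 0 lower, with a median difference of 0.51. The calls of Otof and Myo7a among them were each lost under 5 of 23 alternatives, and the Myo7a arrays overlapped. With RA at day 12 limma called 0 of the hair cell markers higher and 0 lower, with a median of 0.03. Of all genes, 2.05% were called higher and 2.89% lower with RA at day 8, and 0.383% and 0.541% at day 12. Over time in Dox+RA iHCs, 2 of 8 neuron markers were lower and 0 higher, and in Dox iHCs 3 were lower and 1 higher. Of all genes, 1.78% were called higher and 2.61% lower over time in Dox+RA iHCs, and 3.39% and 4.66% in Dox iHCs. The calls of Nefm in Dox+RA iHCs and Stmn2 in Dox iHCs were each lost under 10 of 23 alternatives. With RA, 0 neuron markers were called lower at either day, and 1 was higher at day 8. That marker, Syt1, lost the call under 5 of 23 alternatives. The mean of the 8 neuron markers was 6.06 to 6.58 on Dox+RA arrays of day 12 against 6.83 to 7.05 at day 8, and 6.50 to 6.70 on Dox arrays of day 12 against 6.55 to 7.19 at day 8. Nefl, a neurofilament gene among them, was lower at day 12 than at day 8 by -2.62 ± 0.31 in Dox+RA iHCs (adjusted p = 0.0005) and -1.71 ± 0.31 in Dox iHCs (adjusted p = 0.0046, and adjusted p = 0.0513 in a fit of these arrays alone), and by -4.18 ± 0.48 (adjusted p = 0.00028) and -3.27 ± 0.48 (adjusted p = 0.0019) relative to the change in EBs. Relative to EBs of day 12, 1 neuron marker, the tubulin gene Tubb3, was lower in both treatments (-0.90 ± 0.17, adjusted p = 0.00035 in Dox+RA and -0.61 ± 0.17, adjusted p = 0.0076 in Dox). Among cardiac progenitor genes, Mef2c was lower with RA at day 12 (-1.47 ± 0.31, adjusted p = 0.039) and day 8 (-1.52 ± 0.31, adjusted p = 0.013) and lower with time in Dox iHCs (-1.14 ± 0.31, adjusted p = 0.039). The Mef2c call with RA at day 8 was lost without Dox replicate 2 (adjusted p = 0.0604), and that at day 12 without any EB array, any Dox array of that day, Dox+RA replicates 1 or 2 of that day, or Dox replicate 2 of day 8 (adjusted p up to 0.185). With the mean of its entries, the day 12 difference was -0.75 (adjusted p = 0.0525). Its call over time was lost without any Dox array of day 12, Dox replicates 1 or 2 of day 8, either EB array of day 12, or Dox+RA replicate 2 of day 12 (adjusted p up to 0.119). RMA values have no true 0, so no marker can be called absent.

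Lhx2 and Isl2 were lower in some iHC groups by well under 1 log2 unit. Lhx2, a factor of the forebrain, eye and dI1 neurons, read 4.12 to 4.43 on all 12 iHC arrays and 4.53 to 5.02 on the 4 EB arrays. It differed by -0.61 ± 0.12 (adjusted p = 0.00064) in Dox+RA iHCs and -0.66 ± 0.12 (adjusted p = 0.00046) in Dox iHCs of day 8. At day 12 the values were -0.28 ± 0.12 (adjusted p = 0.074) in Dox+RA iHCs and -0.36 ± 0.12 (adjusted p = 0.022) in Dox iHCs. The Dox call at day 12 was lost with arrays centred on their medians (adjusted p = 0.0552) and in a fit of these arrays alone (adjusted p = 0.0718). It was also lost without Dox replicate 1 (adjusted p = 0.0624), Dox replicate 2 (adjusted p = 0.0824) or EB replicate 2 (adjusted p = 0.199).

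Isl2, which follows Isl1 in motor neurons and marks a class of retinal ganglion cells, was lower in iHCs at day 12. At that day it read 4.55, 4.37 and 4.38 in Dox+RA iHCs, 4.43, 4.17 and 4.32 in Dox iHCs, and 5.03 and 4.89 in EBs. At day 8 it read 4.59, 4.49 and 4.34 in Dox+RA iHCs, 4.31, 4.55 and 4.75 in Dox iHCs, and 4.55 and 4.50 in EBs. The EBs of day 12 stood above all other arrays, and the arrays of the other 5 groups ran from 4.17 to 4.75. At day 12 the difference was -0.53 ± 0.13 in Dox+RA iHCs (adjusted p = 0.0029) and -0.66 ± 0.13 in Dox iHCs (adjusted p = 0.00059), against -0.05 ± 0.13 (adjusted p = 0.78) and 0.01 ± 0.13 (adjusted p = 0.97) at day 8. The change over time minus that of EBs was -0.48 ± 0.18 for Dox+RA (adjusted p = 0.23) and -0.67 ± 0.18 for Dox (adjusted p = 0.064). The Dox value passed the threshold with the replicate block (adjusted p = 0.0428) and without Dox replicate 1 of day 8 (adjusted p = 0.0212).

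The remaining 3 genes were not called in any comparison. Lhx9, the dI1 relative of Lhx2, read 3.68 to 4.01 on iHC arrays and 3.76 to 3.94 on EB arrays. Over the 9 comparisons between 2 groups, the differences of Lhx5, Lhx9 and Lmx1a ran from -0.15 to 0.28. The lowest adjusted p there was 0.31, and 95% intervals lay within -0.54 to 0.61. In the change over time of Dox+RA iHCs minus that of EBs, Lhx5 differed by 0.29 (95% interval -0.22 to 0.81, adjusted p = 0.68). The table holds no detection calls, so whether these 3 genes were expressed was not tested. The same holds for Lhx2 and Isl2, whose values of 4.12 to 5.03 lay below the median of 5.18 over the genes tested. Set side by side, the close paralogue pairs Lhx1 and Lhx5, and Lmx1b and Lmx1a, each hold 1 gene called higher in all iHC groups and 1 never called, while Lhx3 and Lhx4 both rose. The difference between paralogues was not tested.

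iHC arrays with the same replicate number shared part of their deviation in several of these genes. Lhx1 was lowest in replicate 3 in 4 of 4 iHC groups, by -0.64 to -0.41 from the group mean, and highest in replicate 1 (0.25 to 0.50). Lmx1b ran the other way, with replicate 1 lowest in 4 of 4 groups (-0.38 to -0.17) and replicate 3 highest (0.16 to 0.42). Isl1 was lowest in replicate 1 in 4 of 4 groups (-0.70 to -0.24). What the numbers stand for is not given in the sources used here.

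**Figure D4:**
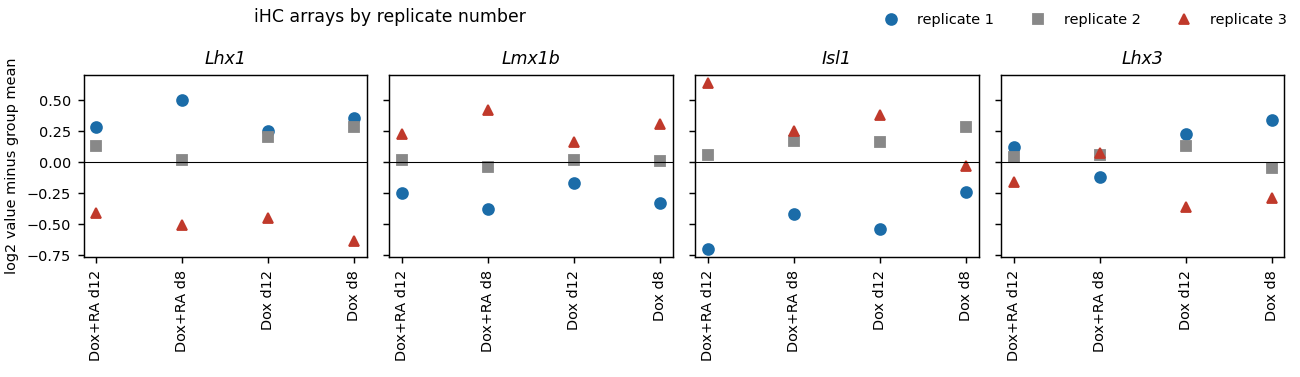
Log2 value minus the group mean (vertical axis) of Lhx1, Lmx1b, Isl1 and Lhx3 for replicates 1, 2 and 3 (symbols) in the 4 iHC groups. Replicate 3 of Lhx1 and replicate 1 of Lmx1b and Isl1 lie below 0 in all 4 groups, and replicate 1 of Lhx3 is highest in 3 of them.

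Partners of the family differed in direction. Of 10 cofactor and LIM-only genes, 4 rose and 2 fell in Dox+RA iHCs of day 12 relative to EBs, 4 rose and 3 fell in those of day 8, 2 rose and 2 fell in Dox iHCs of day 12, and 6 rose and 2 fell in those of day 8. Their median differences were 0.19, 0.28, 0.08 and 0.40 in that order. Of all genes, 15.7% to 22.4% were called higher and 18.9% to 22.4% lower in these comparisons. Ldb1, the common bridge protein, was called in none of the 4: its mean lay between 9.63 and 9.85 in the iHC groups and at 9.65 and 9.61 in EBs of day 12 and day 8. Ldb2, its paralogue, was lower in all 4, by -2.21 ± 0.22 (adjusted p = 8.7e-07) and -1.53 ± 0.22 (adjusted p = 4.2e-05) in Dox+RA iHCs of day 12 and day 8. In Dox iHCs Ldb2 differed by -2.34 ± 0.22 (adjusted p = 5.9e-07) at day 12 and -1.07 ± 0.22 (adjusted p = 0.0013) at day 8.

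Lmo1, a LIM-only gene, was 1.5 ± 0.21 (adjusted p = 2.6e-05) and 1.20 ± 0.21 (adjusted p = 0.00023) higher in Dox+RA iHCs of day 12 and day 8, and 1.56 ± 0.21 (adjusted p = 2.0e-05) and 1.28 ± 0.21 (adjusted p = 0.00018) higher in Dox iHCs. Lmo3 rose in 3 groups, by 1.32 ± 0.37 in Dox+RA iHCs of day 12 (adjusted p = 0.0085), 2.06 ± 0.37 in those of day 8 (adjusted p = 0.00031) and 1.05 ± 0.37 in Dox iHCs of day 8 (adjusted p = 0.038), and differed by -0.13 ± 0.37 in Dox iHCs of day 12 (adjusted p = 0.82). The Dox+RA call at day 12 was lost without EB replicate 2 (adjusted p = 0.103), and the Dox call at day 8 without any 1 of the 3 Dox or 2 EB arrays of that day (adjusted p up to 0.167). Lmo4 rose at day 8, by 1.21 ± 0.15 in Dox+RA iHCs (adjusted p = 8.8e-06) and 0.98 ± 0.15 in Dox iHCs (adjusted p = 9.6e-05), and had differences of 0.27 (adjusted p = 0.16) and 0.24 (adjusted p = 0.23) at day 12. Ssbp4, of a family that stabilises Ldb proteins, was lower in all 4 groups, by -0.59 ± 0.12 and -0.98 ± 0.12 in Dox+RA iHCs of day 12 and day 8 and by -0.61 ± 0.12 and -0.92 ± 0.12 in Dox iHCs. The other LIM homeobox genes on the table, Lhx6 and Lhx8, were called in none of the 12 comparisons.

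**Figure D5:**
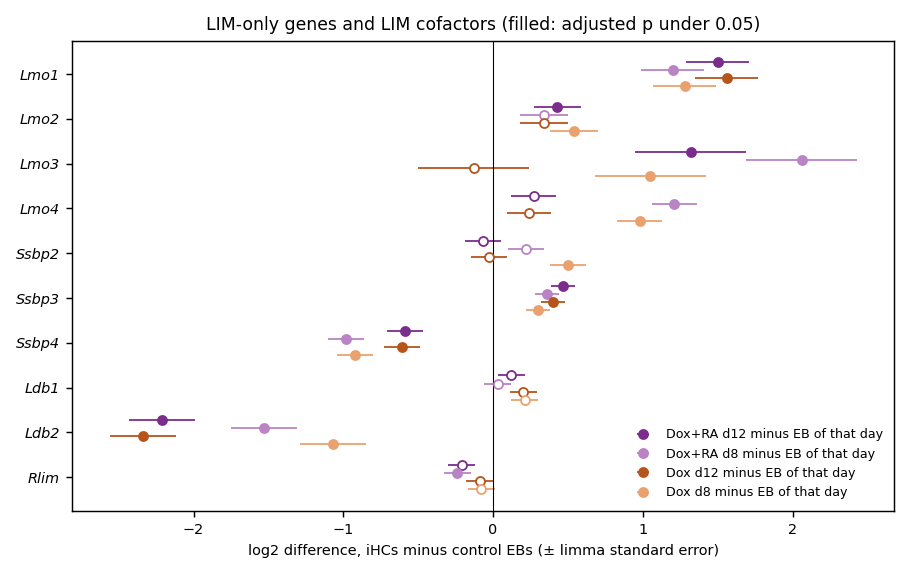
Log2 difference (± limma standard error) of 10 LIM-only and cofactor genes between iHCs and control EBs of the same day, for the 4 iHC groups; filled points had an adjusted p under 0.05. Ldb2 lies left of 0 and Lmo1 right of 0 in all 4 groups, and Ldb1 stays between 0.03 and 0.21.

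Genes that share cell types with the LIM factors were counted from lists. Of 6 genes of dI1 neurons and hair cells on the table, 5 rose in each iHC group, with medians of 4.46 to 4.76. In these comparisons 15.7% to 22.4% of all genes were called higher. The genes that rose were the 3 induced factors, Barhl1 (4.47 ± 0.24 to 4.98 ± 0.24), a homeobox gene of both cell types, and Pou4f1 (3.27 ± 0.12 to 3.92 ± 0.12), a POU factor of sensory neurons. The rise of the 3 induced factors was set by the design, and they enter the medians. Their native and induced forms cannot be told apart. Barhl2 was not called in any (0.01 to 0.17). The dI1 genes among the LIM factors themselves, Lhx2 and Lhx9, were called higher in none of the groups.

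Lists for neurons that express LIM factors were counted in the same way. In these comparisons 15.7% to 22.4% of all genes were called higher and 18.9% to 22.4% lower. Of 7 motor neuron genes, where Lhx3 and Isl1 act together, 0 rose and 1 fell in both iHC groups of day 12. At day 8, 2 rose and 1 fell in Dox+RA iHCs, and 1 rose and 1 fell in Dox iHCs. The gene that fell was Tbx20, which is also a cardiac gene (-4.87 ± 0.25 to -3.86 ± 0.25). Mnx1, a motor neuron homeobox gene, rose at day 8 in Dox+RA iHCs (1.04 ± 0.24, adjusted p = 0.0022) and Dox iHCs (0.95 ± 0.24, adjusted p = 0.0052). Both calls were lost without EB replicate 2 (adjusted p = 0.051 and adjusted p = 0.0962). Slc18a3, the vesicular acetylcholine transporter, rose in Dox+RA iHCs of day 8 (0.74 ± 0.24, adjusted p = 0.023), a call lost without either EB array (adjusted p = 0.0921 and adjusted p = 0.0928) or Dox+RA replicate 3 (adjusted p = 0.0958). Mnx1 was also lower at day 12 than at day 8 in Dox+RA iHCs (-1.07 ± 0.21, adjusted p = 0.011, and adjusted p = 0.0622 without Dox+RA replicate 2 of day 12). Medians of this list were -0.01, 0.17, -0.04 and 0.16 in Dox+RA day 12 and day 8 and Dox day 12 and day 8.

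Of 8 V2 interneuron genes, where Lhx3 acts without Isl1, 1 rose and 1 fell in Dox+RA iHCs of day 12 and 3 rose and 2 fell at day 8, with 2 up and 1 down in Dox iHCs of day 12 and 2 up and 2 down at day 8. Sox14, a V2a gene, rose in Dox iHCs by 1.30 ± 0.18 at day 12 (adjusted p = 3.4e-05) and 1.72 ± 0.18 at day 8 (adjusted p = 3.2e-06). Sox21 rose in Dox+RA iHCs by 0.81 ± 0.21 at day 12 (adjusted p = 0.0043) and 1.35 ± 0.21 at day 8 (adjusted p = 6.9e-05). With RA at day 8, Sox14 was lower (-1.37 ± 0.16, adjusted p = 0.00037) and Sox21 higher (1.06 ± 0.18, adjusted p = 0.0048). Gata2, a V2b and blood gene, was lower in all 4 iHC groups relative to EBs (-2.30 ± 0.18 to -1.74 ± 0.18). List medians were 0.11, 0.30, 0.09 and 0.16 in Dox+RA day 12 and day 8 and Dox day 12 and day 8.

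Of 13 genes of inhibitory interneurons that express Lhx1 and Lhx5, 0 rose in any iHC group relative to EBs, and 1, 1, 1 and 0 fell in Dox+RA day 12 and day 8 and Dox day 12 and day 8, with medians of 0.12, -0.00, -0.00 and -0.04. Gad2, a GABA-synthesising enzyme, was lower at day 12 in Dox+RA iHCs (-0.77 ± 0.13, adjusted p = 0.00014) and Dox iHCs (-0.80 ± 0.13, adjusted p = 0.00011). Of 5 genes of excitatory dorsal neurons that express Isl1 or Lmx1b, 2 rose in each group except Dox at day 8, where 3 rose and 1 fell, and medians were 0.11, 0.31, 0.19 and 0.59 in the same order. Prrxl1, a homeobox gene of pain-sensing circuits, rose by 3.13 ± 0.19 to 3.49 ± 0.19 in the 4 groups. Slc17a7, a vesicular glutamate transporter, rose by 1.27 ± 0.28 in Dox+RA iHCs of day 12 (adjusted p = 0.0017), and by 1.93 ± 0.28 (adjusted p = 4.7e-05) and 1.5 ± 0.28 (adjusted p = 0.00062) in Dox iHCs of day 12 and day 8.

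Sensory neuron genes, another setting of Isl1, were mixed. Of 11, 4 rose and 4 fell in Dox+RA iHCs of day 12 and 6 rose and 3 fell at day 8, and in Dox iHCs 5 rose and 4 fell at day 12 and 6 rose and 3 fell at day 8. The list medians were 0.06, 0.49, 0.08 and 0.84. Of all genes, 15.7% to 22.4% were called higher and 18.9% to 22.4% lower in these comparisons. Eya1, a transcriptional cofactor of placodes, rose in all 4 groups (2.50 ± 0.19 to 2.81 ± 0.19). Among those that fell was Runx1, at -1.46 ± 0.18 in Dox+RA iHCs of day 12 (adjusted p = 9.1e-06). With time, 1 of the 11 fell in Dox+RA iHCs and 3 in Dox iHCs, where 2.61% and 4.66% of all genes were called lower. Pou4f1 was lower at day 12 than at day 8 in both (-0.75 ± 0.11, adjusted p = 0.0017 in Dox+RA and -0.72 ± 0.11, adjusted p = 0.0024 in Dox). In Dox iHCs the neurotrophin receptor gene Ntrk3 (-2.0 ± 0.25, adjusted p = 0.00091) and the neurofilament gene Prph (-1.08 ± 0.17, adjusted p = 0.0027) were lower too. With RA at day 8, 2 of the 11 were called lower, 0 higher and 9 not called, with a median of 0.03, where 2.89% of all genes were called lower. They were Prph (-1.41 ± 0.17, adjusted p = 0.00032) and Ntrk3 (-1.31 ± 0.25, adjusted p = 0.0082), the latter lost under 1 of 23 alternatives. With RA at day 12, 0 of the 11 were called.

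In a search for genes of like pattern, predicted genes, unnamed cDNAs, microRNAs and small nucleolar RNAs were passed over. Among the rest, genes with the closest pattern were found by Pearson correlation with each LIM factor over the 16 arrays. The r over the 12 iHC arrays is given beside that over the 16. The step between iHCs and EBs enters the first and not the second. For Lhx3 they were Zfp276 (0.998 and 0.968), the synaptic vesicle calcium sensor Syt1 (0.998 and 0.968) and Rundc3a (0.995 and 0.876). For Lhx1 they were Fbrsl1 (0.993 and 0.739), Fam174b (0.991 and 0.766) and Ogdhl (0.991 and 0.683). Lhx4 was closest to Ano4 (0.978 and 0.919), Kcnk12 (0.976 and 0.808) and Gpr37 (0.972 and 0.853). Isl1 was closest to the cation channel Trpm4 (0.940 and 0.955), the cyclin-dependent kinase inhibitor Cdkn1c (0.938 and 0.968) and the kinesin Kif3a (0.929 and 0.972). Lmx1b was closest to Otud7a (0.956 and 0.920), Plekhn1 (0.955 and 0.883) and Zfp612 (0.944 and 0.828). For Lhx2 the closest was Abcc4 (0.945 and 0.569) and for Isl2 Gjb5 (0.884 and 0.843). These are descriptions over arrays that share groups, and no test was made.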

How the data were processed

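Per the submitters' processing notes, the authors ran RMA in Affymetrix Expression Console (no version named), and the deposited table holds log2 expression. RMA subtracts background, quantile-normalizes the arrays and reduces each entry's probes to 1 value, so levels are relative and have no true 0. The sources used here give no strip or scan batch. Values ran from 1.44 to 12.26 and were used as deposited. Precision is limited by how few arrays a group has.

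Of 33708 entries, 23521 carry 1 symbol in GEO's platform annotation, 1814 several and 8373 none. The entry with the highest mean was kept for 1082 genes with more than 1, leaving 22180. A value column outside these arrays was used in 0 cases.

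limma 3.58.1 (R 4.3.3; lmFit, contrasts.fit, eBayes) fitted a mean for each of 6 groups, for 9 differences between 2 groups and 3 differences of differences. The fit was tested on simulated data with independent noise on each array. That setting lacks the shared deviation of same-numbered iHC arrays described below. Figures were drawn with matplotlib 3.10.9, and tables made with pandas 2.3.3 under Python 3.11.15. The LIM homeobox genes and the 12 gene and 8 marker lists were chosen with earlier results of these data known. Named are all 10, up to 3 called genes of a list by size of difference (a part of these is printed, chiefly those called under every alternative, plus Ldb1, Lmo1, Lmo4, Ssbp4, Lhx6, Lhx8, Barhl2, Nefl and Tubb3, chosen after their values were seen), and up to 3 genes closest to a LIM homeobox gene by correlation. List genes without an entry of their own were not analysed here.

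The labels call the samples biological replicates and do not say what they share, so p-values measure the spread between these samples. For each gene that spread is a single estimate pooled over the 16 arrays and moderated by limma, because control EBs have 2 arrays a group. A p-value against EBs thus rests in large part on the spread of the iHC arrays. Same-numbered iHC arrays of any pair of groups deviated together (18 pairs, r 0.147 to 0.513, all above 0.1), so values with the replicate number as a block stand beside results whose call they change. Promoter sequences are from RefSeq (GRCm38.p6), matched by symbol.

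The alternatives were median centring, only the arrays compared, a variance trend with robust fit, the mean of a gene's entries, all entries of the table, dim genes left out, the replicate block and each array left out in turn.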

Additional observations from a re-analysis of the deposited data

Results flagged for a closer look

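The change of Isl1 from day 8 to day 12 differed between iHCs and control EBs by the test of that difference: -2.47 for Dox+RA iHCs minus EBs (limma adjusted p = 0.012) and -2.03 for Dox iHCs minus EBs (adjusted p = 0.036). One entry of the table carries both Lhx1os, an antisense transcript, and Lhx1, and so stood outside the comparisons. Its mean log2 value was above that of EBs of the same day by 2.84 in Dox+RA iHCs of day 12, 2.16 in those of day 8, 2.41 in Dox iHCs of day 12 and 1.87 in those of day 8. Its arrays ran from 6.56 to 7.58, 5.80 to 7.27, 5.99 to 7.15 and 5.50 to 6.71 in these groups, against 4.17 to 4.49 in EBs of day 12 and 4.25 to 4.47 in those of day 8. The signals of the 2 transcripts cannot be told apart in this entry.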

How the results depend on the processing

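Each comparison was recomputed under 23 alternatives, 16 of which left out 1 array. Of 32 called differences of LIM homeobox genes, 21 were called under all 23 and 11 lost the call under 1 or more, and 0 changed sign. Another 3, uncalled here, were called under some alternative. The other 85 of 120 differences were called under no setting, and 37 of these changed sign under at least 1. Fitting only the arrays compared left 0 genes called for RA at day 12, where there was 1. For Dox+RA over time the count was 1, not 2, with only the arrays compared, with variance trend and robust fit and with all entries. The replicate block, which changed no other call of a LIM homeobox gene, raised the count to 2 for Dox over time and for both changes over time minus that of EBs. Without 1 array the counts ran from 5 to 6 for Dox+RA and Dox iHCs of day 12 and for Dox iHCs of day 8 against EBs, and from 4 to 6 for Dox+RA of day 8. They ran from 0 to 1 and 0 to 2 for RA at day 12 and day 8, from 1 to 2 for either iHC treatment over time, and from 0 to 1 and 0 to 2 for the changes of Dox+RA and Dox minus that of EBs. For EBs over time and for the change of the RA difference they stayed at 0. With dim genes left out (below 3.93), Lhx5 was not tested. Without the 50 bases after the start, CAGATG was in 1 window. The cause of the lost calls was not tested.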

Other observations

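Cardiac progenitor genes, a setting in which Isl1 acts in the mouse embryo, were lower in iHCs than in EBs. Of 8, 5 fell in Dox+RA iHCs of day 12, 7 at day 8, 4 in Dox iHCs of day 12 and 5 at day 8, and 0 rose, with medians of -1.30, -1.03, -0.54 and -0.60. Of all genes, 22.4%, 22.0%, 21.7% and 18.9% were called lower in these groups in that order, and 22.4%, 19.6%, 19.2% and 15.7% higher. The same shares apply to the list counts against EBs that follow. Hand2, a factor of heart and limb, fell by -3.48 ± 0.13 to -3.05 ± 0.13 on the log2 scale in the 4 groups. Within iHCs, 1 of the 8 (Mef2c) was called lower with RA at either day, and 2 (Mef2c, -1.14 ± 0.31, and Fgf10, -0.69 ± 0.17) were lower over time in Dox iHCs. Of all genes, 0.541% and 2.89% were called lower with RA at day 12 and day 8, and 4.66% over time in Dox iHCs. The Mef2c call with RA at day 12 was lost under 12 of 23 alternatives, that at day 8 under 2, the Mef2c call over time under 10 and the Fgf10 call under 5. With the mean of its entries Fgf10 differed by -0.36 (adjusted p = 0.102), and it was lost without Dox replicates 1 or 2 of day 12 or Dox replicate 2 of day 8 (adjusted p up to 0.12). Mean values of the list were 4.69 to 5.37 on iHC arrays and 6.24 to 6.70 on EB arrays. Of 6 roof plate genes, a site of Lmx1a, 3, 2, 3 and 2 fell in Dox+RA day 12 and day 8 and Dox day 12 and day 8 and 0 rose, with medians of -0.36, -0.12, -0.37 and -0.05. Msx2 fell in all 4 (-1.57 ± 0.17 to -0.89 ± 0.17).

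Of 11 floor plate and midbrain dopamine genes, the setting of Lmx1a and Lmx1b, 2, 1, 1 and 2 rose in Dox+RA day 12 and day 8 and Dox day 12 and day 8, and 2, 1, 1 and 1 fell, with medians of 0.04, 0.05, 0.02 and -0.08. Th, the rate-limiting enzyme of dopamine synthesis, rose in all 4 (1.4 ± 0.29 to 1.70 ± 0.29), and Otx2, a fore- and midbrain homeobox gene, fell in all 4 (-1.39 ± 0.36 and -1.69 ± 0.36 in Dox+RA day 12 and day 8, -1.09 ± 0.36 and -1.27 ± 0.36 in Dox day 12 and day 8). The 4 Otx2 calls were lost without EB replicate 2 of the same day (-0.92, adjusted p = 0.123 and -1.01, adjusted p = 0.0524 in Dox+RA, and -0.62, adjusted p = 0.331 and -0.58, adjusted p = 0.312 in Dox). In Dox they were also lost without Dox replicate 1 or 2 of day 12 (adjusted p = 0.0712 and adjusted p = 0.0662) or Dox replicate 2 of day 8 (adjusted p = 0.0535). Of 8 endoderm and node genes, where Isl1 and Lhx1 act, 0, 1, 0 and 1 rose and 2, 1, 2 and 2 fell in the same order, with medians of -0.12, -0.12, -0.18 and -0.14. Sox17 was lower at day 12 in Dox+RA iHCs (-0.89 ± 0.17) and Dox iHCs (-0.99 ± 0.17). Gsc, of the same list, was higher at day 8 in Dox+RA iHCs (0.44 ± 0.11, adjusted p = 0.0044) and Dox iHCs (0.67 ± 0.11, adjusted p = 0.0002). Among markers of other cell types, 7 of 7 for mesenchyme and 7 of 7 for blood and endothelium fell in each iHC group. Of 5 cardiomyocyte markers 3, 4, 2 and 5 fell and 0 rose, and of 6 endoderm markers 5, 3, 5 and 3 fell and 0 rose. Of 6 markers of pluripotent cells 1 rose in each group and 3, 3, 4 and 3 fell, and of 6 of neural progenitors 2, 2, 2 and 3 rose and 2, 1, 2 and 1 fell.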
